A study of Mus musculus with 16 samples.

Results

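The collagen hydroxylases and oxidative folding enzymes described here are 9 genes of the 22096 gene symbols in the data. They are the prolyl 4-hydroxylase subunits P4ha1, P4ha2 and P4hb, the lysyl hydroxylases Plod1, Plod2 and Plod3, the lysyl oxidases Lox and Loxl2, and the oxidoreductase Ero1l. The genes were listed by name, with earlier results of 12/- embryos in view, and the transcripts of each symbol were summed. Their values in comparisons with 12/- are therefore given as a description. Of the 9 genes, 8 had a mean of at least 1 FPKM (fragments per kilobase of transcript, scaled to library size) and entered the fit. All 8 were above 1 FPKM in each of the 16 libraries, so none of them entered through the 12/- libraries alone. Lox did not reach this level.

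RNA was sequenced from endothelial cells sorted for CD31 from whole mouse embryos at embryonic day 9.5. The embryos carried 6 pairs of Notch1 alleles. Wild type (+/+), a deletion allele over wild type (+/-), an allele called vg over wild type (+/vg) and an allele called 12 over wild type (+/12) had 3 libraries each, and the labels describe endothelial development in all 4 as normal. In vg an amino acid substitution that moves the cleavage site gives a less stable intracellular domain, and in 12 the intracellular domain of Notch2 takes the place of that of Notch1. Embryos with 12 over the deletion (12/-, 3 libraries) have endothelial dysfunction and those with 12 over vg (12/vg, 1 library) have a partial form, per the labels. Every 12/- and 12/vg cell therefore lacks a wild-type Notch1 allele, and +/12 is the genotype that shares the 12 allele with both. No tissue-specific driver is named for any of the alleles. Whether a library holds 1 embryo or a pool is not in the labels, so the p-values describe variation between libraries, part of which may be technical.

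Collagens fold in the endoplasmic reticulum. Prolyl 4-hydroxylase, a tetramer of P4ha and P4hb chains, hydroxylates prolines and so keeps the triple helix stable at body temperature. The Plod enzymes hydroxylate lysines, in the helix or in the ends of the chains, and the lysyl oxidases act outside the cell on lysines and hydroxylysines to start crosslinks. The hydroxylases need molecular oxygen, iron, oxoglutarate and ascorbate. Ero1l passes electrons from protein disulfide isomerases, among them P4hb itself, to oxygen, which lets new disulfide bonds form. Several of these genes are known targets of the hypoxia-inducible factors, HIF, in other cells. Endothelial cells make the collagens of the basement membrane, chiefly type IV.

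Aligned sequence was between 1.11 and 1.80 gigabases in 14 libraries, and 0.189 and 0.262 gigabases in the shallow libraries, +/- replicate 2 and 12/vg. Notch1, the edited gene, was read in every group, from 14.5 to 23.3 scaled FPKM over all libraries, and the tables do not separate its alleles. The endothelial identity of the cells was checked on 10 marker genes, each of which was at least 1 in every library. Their summed level ran from 736 to 929 in the 12 libraries of the 4 normal genotypes and from 801 to 1024 in 12/-. The 11 mesenchyme and fibroblast markers summed to between 12.9 and 29.6 in the normal genotypes and to between 10.6 and 22.1 in 12/-. The 6 smooth muscle markers summed to 7.92 to 17.7 and to 9.32 to 16.0, the 7 cardiomyocyte markers to 14.0 to 59.9 and to 20.8 to 28.9, and the 6 yolk sac endoderm markers to 5.63 to 56.5 and to 10.3 to 15.7. The 6 macrophage markers summed to 0.968 to 2.73 and to 1.47 to 6.40, with Ptprc below 0.1 in both. The 7 erythroid, the 6 megakaryocyte and the 7 epithelial and neural markers also overlapped between normal and 12/- libraries, but the first 2 of these lists ran high, up to 241 and 1997 in normal libraries and up to 328 and 1528 in 12/-. These ranges overlap between the normal genotypes and 12/- for all 9 marker lists, and their part in the results below was not tested. In bulk RNA, fewer cells of a type and less RNA per cell cannot be told apart.

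The promoter windows of P4ha1, P4ha2, Ero1l and P4hb are shown because the first 3 genes had some of the largest folds in 12/- and the fourth, the partner chain, a small one. RefSeq promoters (GRCm38.p6, 250 bases before and 50 after the annotated start, read along the gene) were matched for 6 of the 9 genes. Plod2, Loxl2 and Lox have no window here. Capitals mark ACGTG or GCGTG on either strand, the core letters that HIF binds, so that a match on the other strand reads CACGT or CACGC. The windows are chr10:59323046-59323345 on the plus strand for P4ha1, chr11:54100674-54100973 on the plus strand for P4ha2, chr14:45318523-45318822 on the minus strand for Ero1l (RefSeq symbol Ero1a) and chr11:120573204-120573503 on the minus strand for P4hb.
P4ha1: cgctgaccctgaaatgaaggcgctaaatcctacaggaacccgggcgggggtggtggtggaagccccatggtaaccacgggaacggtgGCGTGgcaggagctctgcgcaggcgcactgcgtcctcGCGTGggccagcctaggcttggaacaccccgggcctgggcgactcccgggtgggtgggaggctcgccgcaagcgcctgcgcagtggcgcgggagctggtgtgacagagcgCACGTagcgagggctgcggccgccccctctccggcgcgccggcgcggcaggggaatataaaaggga
P4ha2: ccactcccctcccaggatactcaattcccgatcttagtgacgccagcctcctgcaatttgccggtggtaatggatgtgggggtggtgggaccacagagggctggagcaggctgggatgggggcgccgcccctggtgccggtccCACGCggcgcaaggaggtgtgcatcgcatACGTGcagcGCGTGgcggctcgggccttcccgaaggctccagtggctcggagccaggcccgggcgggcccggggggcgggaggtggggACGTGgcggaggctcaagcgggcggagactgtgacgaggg
Ero1l: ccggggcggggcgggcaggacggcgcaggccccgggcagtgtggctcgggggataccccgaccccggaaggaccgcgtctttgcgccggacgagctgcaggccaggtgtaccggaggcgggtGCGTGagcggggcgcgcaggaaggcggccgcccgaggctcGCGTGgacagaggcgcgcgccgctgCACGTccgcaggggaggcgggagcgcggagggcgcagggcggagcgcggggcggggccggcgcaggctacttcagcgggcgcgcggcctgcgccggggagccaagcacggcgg
P4hb: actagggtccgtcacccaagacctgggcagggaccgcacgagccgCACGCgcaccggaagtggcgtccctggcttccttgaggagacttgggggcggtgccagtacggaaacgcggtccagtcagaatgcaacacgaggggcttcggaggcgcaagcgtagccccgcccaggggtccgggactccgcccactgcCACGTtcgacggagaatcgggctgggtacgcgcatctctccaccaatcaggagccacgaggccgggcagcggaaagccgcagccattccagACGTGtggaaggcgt

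All 4 windows hold both forms of the core, and the share of all windows that hold both was not computed. ACGTG lies 16 bases before the start in P4ha1, 63 before it in Ero1l, and 78 before and 11 after it in P4ha2. P4hb has it at 56 bases before and 36 after. Plod3 holds 1 ACGTG and 3 GCGTG, and Plod1 holds no ACGTG and 2 GCGTG. Of all 32851 promoter windows of this length, 19.6% held ACGTG, 32.4% held GCGTG and 43.8% held either, and the windows of these genes are rich in G and C, from 53.3% in Plod3 to 80.3% in Ero1l. TGGGAA, the core letters of the Notch partner RBPJ, occurred once in Plod1 and once in Plod3, and in 25.6% of all windows. CACGTG (an E-box, which contains ACGTG), TGACGTGG (an element of the unfolded protein response, which also contains it) and the full ER stress response element had 0 matches in the 6 windows and were found in 7.15%, 0.676% and 0.119% of all windows. A match describes letters in the window and not binding.

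**Figure D1:**
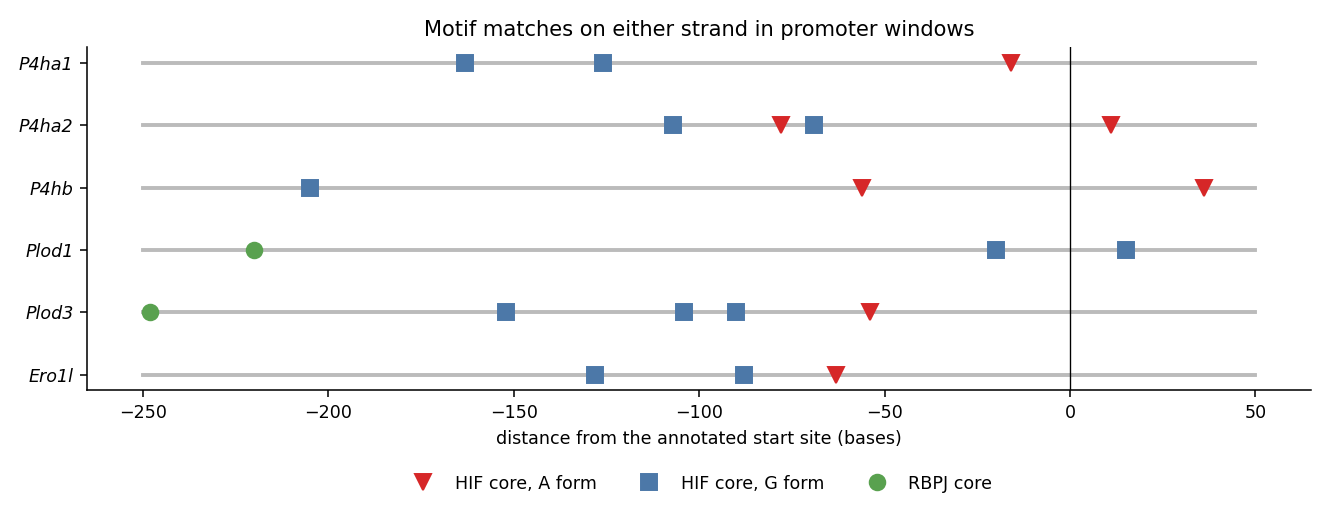
Positions of motif matches on either strand in the promoter windows of 6 genes, in bases from the annotated start site (vertical line). Triangles are ACGTG, squares GCGTG and circles TGGGAA. Of the 6 windows, the 5 other than Plod1 hold at least 1 triangle, and the P4ha2 and P4hb windows hold 2 each.

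Among the prolyl hydroxylase chains, P4ha1 and P4ha2 were higher in all 3 12/- libraries than in any library of the 4 normal genotypes, while P4hb was only slightly higher. P4ha1, a catalytic alpha chain (chr10:58786044-58836052 in mm9), stood at 7.15, 6.66 and 7.18 scaled FPKM in +/+. It was at 7.95, 12.0 and 8.12 in +/-, at 6.96, 7.47 and 5.15 in +/vg, and at 5.78, 9.21 and 7.90 in +/12. In 12/- it reached 19.4, 15.5 and 20.2. The highest normal library, 12.0, was the shallow +/- replicate 2, and the groups did not overlap. The 12/- mean of 18.4 ± 2.50 (SD, n = 3) was 2.41 times the mean of the 12 normal libraries, 7.63 ± 1.75 (SD, n = 12), a log2 fold change of 1.18 ± 0.15 (SE, limma, on log2 of scaled FPKM + 1).

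P4ha2, another alpha chain (chr11:53914426-53945169 in mm9), had the largest fold of the 8 tested genes, from the lowest level among them. It stood at 3.36, 1.51 and 5.02 in +/+ and at 1.57, 2.19 and 2.50 in +/-. In +/vg it was at 2.28, 1.78 and 1.38, and in +/12 at 1.68, 4.59 and 2.32. All normal libraries were thus between 1.38 and 5.02, a wide spread for its level. In 12/- it was at 9.48, 8.09 and 8.30, clear of that range. The mean was 8.62 ± 0.75 (SD, n = 3) against 2.51 ± 1.20 (SD, n = 12), 3.43 times as high, and the log2 fold was 1.52 ± 0.24 (SE). The third alpha chain, P4ha3, had a mean over all libraries below the level tested, so its groups were not compared. It was at 1.24 to 1.61 in the 3 +/+ libraries, with a mean of 1.38 ± 0.208 (SD, n = 3). Its means were 0.469, 0.836 and 0.736 in +/-, +/vg and +/12, and 0.434 ± 0.304 (SD, n = 3) in 12/-.

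P4hb (chr11:120421618-120434250 in mm9) is the disulfide isomerase that forms the beta chain of the same tetramer and also folds other proteins. It was by far the most abundant of the genes per kilobase, at 87.3 to 142 in the normal libraries with a median of 108.5. In 12/- it was at 150.1, 136.5 and 143.6. One +/12 library, replicate 2, at 141.6, overlapped this range, and the other 11 normal libraries lay below it. The log2 fold against the mean of the normal genotypes was 0.38 ± 0.11 (SE), or 1.30 times, and P4hb did not pass the threshold of an adjusted p under 0.05 in any comparison.

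**Figure D2:**
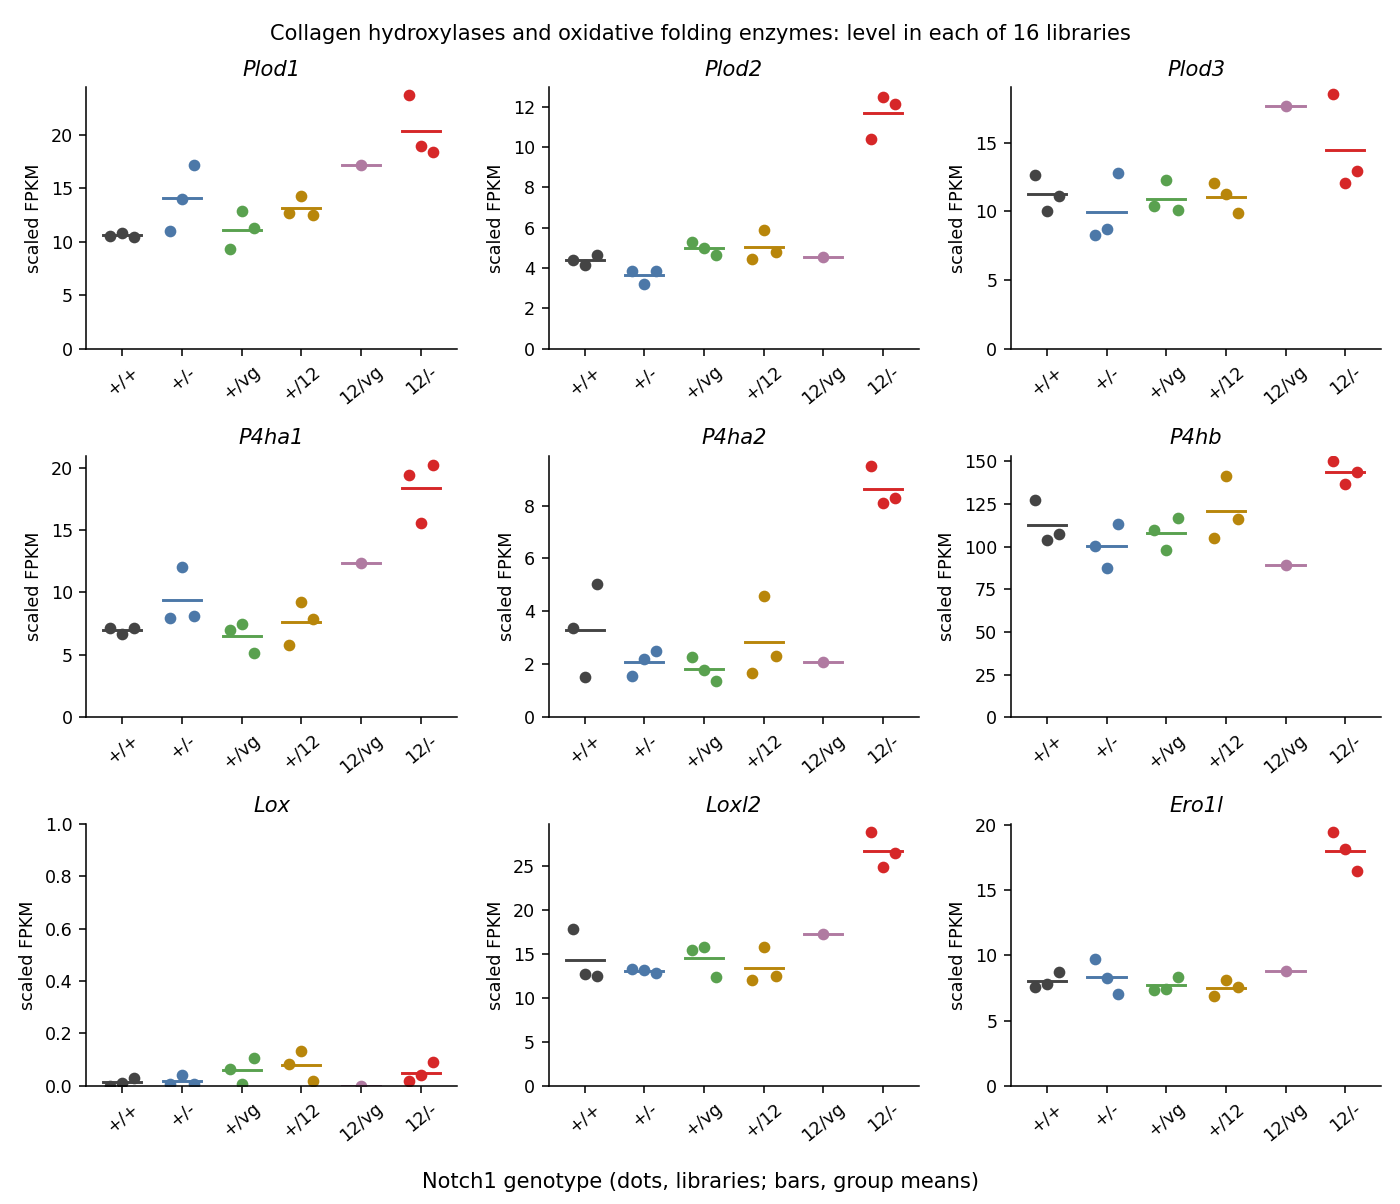
Level of each of the 9 genes in all 16 libraries (dots), in FPKM scaled between libraries on a linear axis from 0, with the mean of each Notch1 genotype as a bar. The 12/- libraries lie above every normal library for Plod1, Plod2, P4ha1, P4ha2, Loxl2 and Ero1l, overlap with them for Plod3 and P4hb, and Lox is near 0 throughout.

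Of the lysyl hydroxylases, Plod2 and Plod1 were higher in 12/- and Plod3 less so. Plod2 (chr9:92437061-92503265 in mm9) hydroxylates lysines in the end regions of collagen chains, from which stable crosslinks form. It was at 4.40, 4.16 and 4.63 in +/+, at 3.86, 3.21 and 3.84 in +/-, at 5.29, 4.98 and 4.66 in +/vg and at 4.45, 5.90 and 4.79 in +/12. In 12/- it stood at 10.4, 12.5 and 12.1, with no overlap and a gap wider than the whole normal range. The 12/- mean, 11.7 ± 1.12 (SD, n = 3), was 2.59 times the normal mean of 4.51 ± 0.71 (SD, n = 12), and the log2 fold was 1.21 ± 0.09 (SE).

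Plod1 (chr4:147283862-147310885 in mm9), which acts on lysines of the helix, was at 10.6, 10.8 and 10.4 in +/+. It was at 11.0, 14.0 and 17.1 in +/-, at 9.27, 12.9 and 11.3 in +/vg and at 12.7, 14.3 and 12.5 in +/12. The 12/- libraries, at 23.7, 19.0 and 18.4, lay above all of these, with +/- replicate 3 the nearest. The log2 fold was 0.70 ± 0.13 (SE), or 1.66 times. Plod3 (chr5:137462889-137472516 in mm9), which also carries glycosyltransferase activity towards hydroxylysine, ran from 8.29 to 12.8 in the normal libraries with a median of 10.7. It was at 18.5, 12.1 and 12.9 in 12/-, so that 1 of the 3 libraries lay within the normal range. Its log2 fold was 0.38 ± 0.14 (SE) and it did not pass the threshold in any comparison. In GENCODE M21, 529 exon bases of Plod3 lie opposite exons of Znhit1, which had a mean of 11.2 scaled FPKM. The counting is not stated to use strand, so the reads of this stretch cannot be assigned to either gene. Plod2 shares 346 exon bases with Gm38391 and Loxl2 301 with Gm27177, both on the opposite strand and without a level in the data. The same limit holds for those stretches.

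Of the 2 oxidases, only Loxl2 was present. Loxl2 (chr14:70009283-70095641 in mm9), a secreted amine oxidase that crosslinks type IV collagen in basement membranes, was at 17.8, 12.7 and 12.4 in +/+ and at 13.2, 13.2 and 12.8 in +/-. It was at 15.4, 15.8 and 12.3 in +/vg and at 12.0, 15.7 and 12.5 in +/12. In 12/- it reached 28.9, 24.8 and 26.4, all above the highest normal library. The log2 fold was 0.91 ± 0.12 (SE), and the ratio of means 1.93. Lox itself, which crosslinks fibrillar collagen and elastin, was between 0 and 0.131 scaled FPKM in the 16 libraries, with a coverage of at most 0.173 reads per base, so no change could be detected at this depth. The other family members Loxl1, Loxl3 and Loxl4 had means of 0.041, 0.639 and 0.136 in 12/- and of 0.086, 0.794 and 0.147 in the normal genotypes, also below the level tested.

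Ero1l (chr14:45902762-45938247 in mm9) had the narrowest normal range for its level. It was at 7.61, 7.80 and 8.76 in +/+ and at 9.71, 8.30 and 7.06 in +/-. In +/vg it stood at 7.34, 7.44 and 8.31, and in +/12 at 6.85, 8.08 and 7.56. The 12/- libraries were at 19.5, 18.1 and 16.5, with no overlap. Their mean of 18.0 ± 1.49 (SD, n = 3) was 2.28 times the normal mean of 7.90 ± 0.79 (SD, n = 12), and the log2 fold was 1.10 ± 0.09 (SE). Its paralogue Ero1lb was at 0.394 ± 0.130 (SD, n = 3) in 12/- and at 0.434 ± 0.194 (SD, n = 12) in the normal genotypes, below the level tested.

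Against the mean of the 4 normal genotypes, limma called 6 of the 8 tested genes higher (adjusted p under 0.05, Benjamini-Hochberg over 10550 genes). Over all genes tested, 0.72% were called higher. The 6 genes whose 12/- libraries lay above all 12 normal libraries stand beside 1.91% of all genes. The median log2 fold of the 8 genes was 1.00, and that of all genes tested was -0.0048. The genes were chosen with this contrast in view, so nothing is read from these counts. Plod1 and P4ha2 were not called without 12/- replicate 1 or without replicate 2, which leaves 4 genes. Over the 9 alternatives other than leaving out a single library, the lowest count was also 4.

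The calls differed with the control genotype. Against +/12, the genotype that differs from 12/- by the deletion in place of the wild-type allele, 4 of 8 were called higher (Ero1l, Loxl2, P4ha1 and Plod2), beside 0.209% of all genes. Against +/+ there were 5 (the same 4 and Plod1), beside 0.54%. Against +/- there were 4 (Ero1l, Loxl2, P4ha2 and Plod2), beside 0.512%, and 2 without 12/- replicate 1. Against +/vg there were 6 (all but Plod3 and P4hb), beside 0.408%, and 3 (Ero1l, P4ha1 and Plod2) without any 1 of the 6 libraries compared. The count against +/12 was 2 without +/12 replicate 1 or 3 or without 12/- replicate 1 or 3, and that against +/+ was 2 without 12/- replicate 1 or 3. Ero1l, Loxl2 and Plod2 were thus called in each of the 4, and Ero1l and Plod2 were still called in each with any 1 library of the compared groups left out. The 4 comparisons share the 12/- libraries and are not independent of one another. The log2 change with the deletion allele was larger beside 12 (from +/12 to 12/-) than beside wild type (from +/+ to +/-) by 1.29 ± 0.16 (SE) for Plod2 and 1.12 ± 0.17 (SE) for Ero1l, the 2 members that limma called for this difference, beside 0.0474% of all genes. This term rests on the 12/- values with which the genes were chosen, and over 21 alternatives the call held in 12 for Plod2 and in 3 for Ero1l.

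The log2 folds of Ero1l and Loxl2 moved least between control genotypes, and those of the other 6 genes varied more. Ero1l lay between 1.03 (against +/-) and 1.16 (against +/12), and Loxl2 between 0.84 (against +/vg) and 0.98 (against +/-). Plod2 ran from 1.07 (against +/12) to 1.45 (against +/-), and P4ha1 from 0.92 (against +/-) to 1.37 (against +/vg). P4ha2 ran from 1.25 ± 0.31 (SE, against +/+) to 1.78 ± 0.31 (SE, against +/vg), with the widest error of the 8. Plod1 ran from 0.52 (against +/-) to 0.87 (against +/+). Plod3 stayed between 0.32 and 0.51 and P4hb between 0.26 and 0.52.

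**Figure D3:**
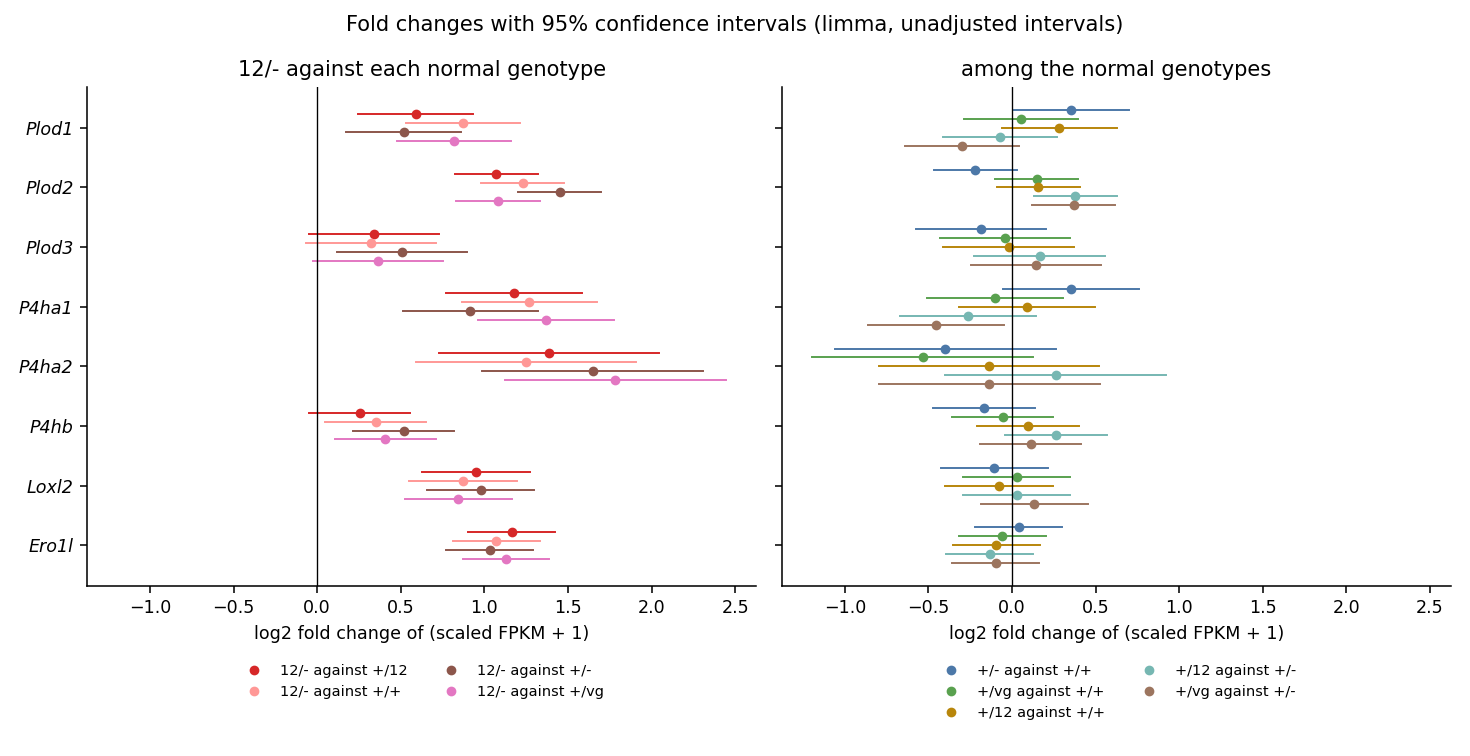
Log2 fold change of scaled FPKM + 1 for the 8 tested genes with its 95% confidence interval from limma, for 12/- against each normal genotype (left) and among the normal genotypes (right). On the left all 32 points lie above 0 and 4 of the 32 intervals include 0. On the right 19 of the 40 points lie above 0 and 36 of the 40 intervals include 0. The 8 genes were chosen with 12/- results in view, and the left comparisons share the 12/- libraries. The left counts are therefore a description. The right comparisons also share libraries with one another, so their intervals are not independent either.

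Library numbers in the deposited tables fall in a low and a high range, and no label gives a batch. All 3 of 12/- were in the low range with +/12, those of +/+ in the high range, and +/- and +/vg were split. The folds were therefore also computed against normal libraries of each range alone. Against the 5 low-range normal libraries the log2 difference was 1.15 for Ero1l, 1.15 for Plod2, 1.25 for P4ha1, 1.53 for P4ha2, 0.98 for Loxl2 and 0.56 for Plod1. Against the 7 high-range libraries it was 1.06, 1.25, 1.13, 1.51, 0.86 and 0.80 for the same genes. For Plod3 the pair of values was 0.33 and 0.42, and for P4hb 0.28 and 0.46. The genes were chosen with 12/- values in view, so these differences are a description. The low range holds every 12/- and every +/12 library, so the range is the same on both sides of that comparison. It is also the same against the 5 low-range normal libraries. For 12/- against +/+, range and genotype cannot be told apart, and against +/- and +/vg they are partly mixed.

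In the comparisons among normal genotypes, limma called none of the 8. It also called 0 of 10550 genes in each of the 5 comparisons, with 506 to 891 genes at an unadjusted p under 0.05. In +/- against +/+, which asks what loss of a single Notch1 copy does, 7.51% of all genes had an unadjusted p under 0.05, and so did 1 of the 8, Plod1, with a log2 fold of 0.36 ± 0.16 (SE, limma adjusted p = 0.65). The 95% interval of that fold ran from 0.013 to 0.70. Ero1l differed by 0.04, with an interval from -0.22 to 0.30. The interval for Plod2 was -0.47 to 0.03, for Loxl2 -0.43 to 0.22 and for P4ha1 -0.05 to 0.76. For P4ha2 it was much wider, -1.06 to 0.26.

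In +/12 against +/+ and in +/vg against +/+, none of the 8 had an unadjusted p under 0.05 (5.37% and 7.52% of all genes did). The Ero1l interval was -0.35 to 0.17 for +/12 and -0.32 to 0.20 for +/vg. The Plod2 interval was -0.09 to 0.41 for +/12 and -0.10 to 0.40 for +/vg, so both include small increases. Plod2 was lowest in +/-, where all 3 libraries lay below all libraries of the other normal genotypes. It was 0.38 ± 0.12 (SE) higher in +/12 than in +/-, with a limma adjusted p of 0.88, and 0.37 ± 0.12 (SE) higher in +/vg than in +/-, with an adjusted p of 0.48. P4ha1 had a log2 fold of -0.45 ± 0.19 (SE) in +/vg against +/-, with an adjusted p of 0.57. These were the only members under an unadjusted p of 0.05 in those 2 comparisons, where 4.8% and 8.45% of all genes were.

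The 12/vg embryo pairs the 12 allele with the less stable vg protein in place of a deletion, and its only library is shallow, so its values have no replicate check. Plod1 at 17.2, Plod3 at 17.7 and P4ha1 at 12.3 lay above the highest normal library, the first and the third by less than 0.5 scaled FPKM. Loxl2 at 17.3 was within the normal range, below +/+ replicate 1. Ero1l at 8.82, Plod2 at 4.53, P4ha2 at 2.09 and P4hb at 89.2 also lay within it. For Plod3, 12/vg stood within the 12/- range as well. For the other 7 tested genes it stood below all 3 12/- libraries.

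Per kilobase, the order of the genes differed little between groups. In the normal genotypes P4hb led with 110.5 ± 14.2 (SD, n = 12), followed by Loxl2 with 13.8 ± 1.84, Plod1 with 12.2 ± 2.16 and Plod3 with 10.8 ± 1.49, whose library ranges overlap in turn. Ero1l with 7.90 ± 0.79 and P4ha1 with 7.63 ± 1.75 were alike in level, and Plod2 with 4.51 ± 0.71 and P4ha2 with 2.51 ± 1.20 were the lowest. In 12/- P4hb (143 ± 6.83, SD, n = 3), Loxl2 (26.7 ± 2.02) and Plod1 (20.4 ± 2.91) again led. P4ha1 (18.4 ± 2.50) and Ero1l (18.0 ± 1.49) there had higher means than Plod3 (14.5 ± 3.51), with ranges that overlap it. Plod2 (11.7 ± 1.12) and P4ha2 (8.62 ± 0.75) were still lowest.

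Of these genes, Plod2 and P4ha2 are each listed with 2 transcripts, which differ in known exons. In Plod2 the longer transcript, of 3711 bases, includes a coding exon of 63 bases (exon 14, chr9:92601985-92602047 in GRCm38, plus strand, GENCODE M21) that the 3648-base transcript skips. In P4ha2 the 2278-base and 2284-base transcripts hold alternative coding versions of exon 13, of 60 bases (chr11:54126238-54126297, plus strand) and 66 bases (chr11:54126346-54126411, plus strand). These exons are shown because they are what the split of each gene's reads rests on. Capitals mark the longest run of letters that the P4ha2 exons share.
Plod2 exon 14: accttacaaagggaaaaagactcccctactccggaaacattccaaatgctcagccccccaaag
P4ha2 exon 13, 2278-base transcript: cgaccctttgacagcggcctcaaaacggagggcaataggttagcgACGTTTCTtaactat
P4ha2 exon 13, 2284-base transcript: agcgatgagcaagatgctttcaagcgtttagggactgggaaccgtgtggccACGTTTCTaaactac

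The share of P4ha2 held by the 2278-base transcript was 81.4%, 58.8% and 76.3% in 12/-, a mean of 72.2% ± 11.9 (SD, n = 3). In the 12 normal libraries it had a mean of 54.2% ± 36.4 (SD, n = 12) and ran from 0.004% to 99.99%, with a median of 64.5%. The groups overlapped, and the difference of 18.0 percentage points had an exact two-sided permutation p of 0.457 (0.914 after Benjamini-Hochberg adjustment over 2 tests, 455 arrangements). Among the libraries with numbers in the low range, where every 12/- library lies, the difference was 3.31 points. For Plod2 the 3648-base transcript held 61.6%, 51.4% and 75.6% in 12/-, a mean of 62.9% ± 12.1 (SD, n = 3). The normal mean was 60.4% ± 28.6 (SD, n = 12), from 0.015% to 100% with a median of 64.5%, and the exact permutation p was 0.949 (adjusted 0.949). In 12/- both transcripts of each gene were present in every library, at 1.76 scaled FPKM or more. The coverage of P4ha2 in normal libraries was low, from 0.405 to 8.41 reads per base, and in several of them nearly the whole gene was assigned to a single transcript. The 12/- coverage was 10.3 to 15.5 reads per base, so the depth behind the shares differed between the groups, and its part in their narrower spread was not tested.

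**Figure D4:**
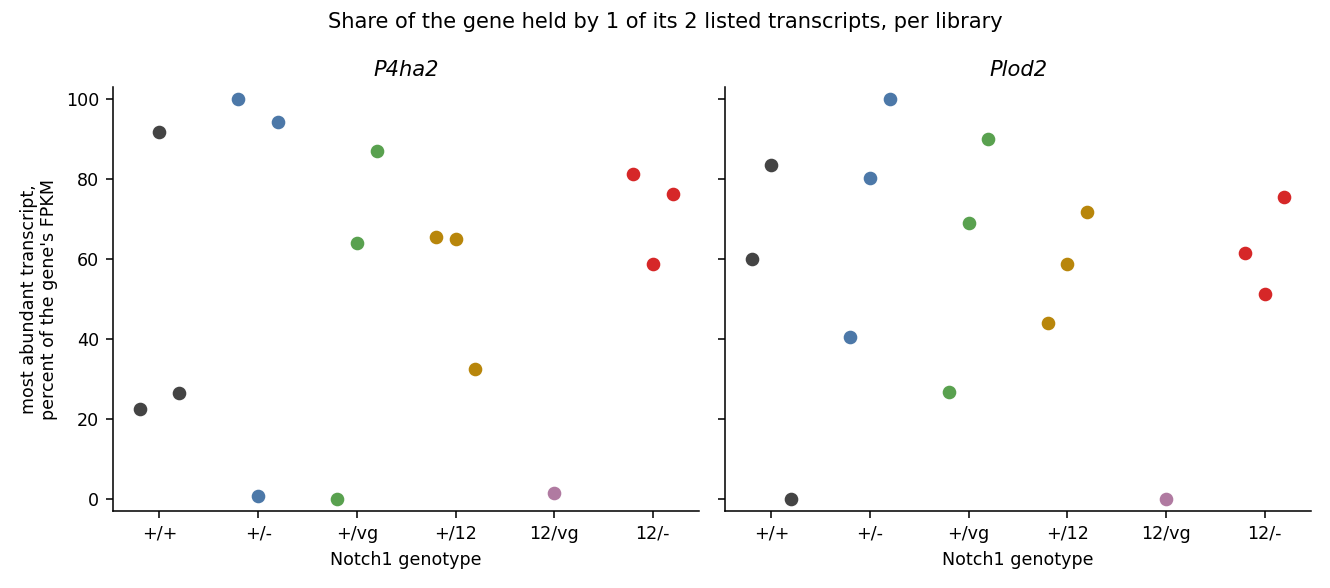
Share of the gene's FPKM, in percent, held by the 2278-base transcript of P4ha2 (left) and the 3648-base transcript of Plod2 (right) in each library, by Notch1 genotype. The 12/- libraries span 58.8% to 81.4% and 51.4% to 75.6%, and normal libraries reach from near 0 to near 100% for both genes.

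Other genes of the same pathways were looked at from 6 lists chosen by function, against the mean of the 4 normal genotypes. Of all genes tested, 0.72% were called higher and 11.5% had an unadjusted p under 0.05. The list of other collagen-modifying and crosslinking genes had 17 tested members, none called by limma and 1 under an unadjusted p of 0.05, with a median log2 fold of 0.09. That gene was Serpinh1, the collagen chaperone, with a log2 fold of 0.19 ± 0.08 (SE, adjusted p = 0.36). Next came Leprel4, which belongs to the prolyl 3-hydroxylase family, with 0.40 ± 0.21 (adjusted p = 0.50). The prolyl 3-hydroxylase Lepre1 had a log2 fold of 0.05 and its partner Crtap -0.09.

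Of 22 tested genes of disulfide formation and the isomerase family, limma called 0, with 2 under an unadjusted p of 0.05 and a median of 0.07. These were Sumf1, which activates sulfatases, with -0.46 ± 0.11 (SE, adjusted p = 0.075), and Dnajc10, a disulfide reductase, with -0.24 ± 0.10 (SE, adjusted p = 0.38). In this list 14 of the 22 log2 folds were above 0, among them those of the isomerases Pdia3 (0.13) and Pdia6 (0.08). Of 25 tested genes of the unfolded protein response and chaperones, 1 was called higher and 0 lower, with 8 under an unadjusted p of 0.05 and a median of -0.06. Of these 8, 6 had log2 folds below 0, and Dnajb11, Dnajc3 and Manf lay wholly below the normal libraries, as did 0.929% of all genes. Their folds were -0.39, -0.42 and -0.39, and none of these passed the test. Trib3, a pseudokinase induced by the stress factor Atf4, rose by 1.65 ± 0.24 (SE, limma adjusted p = 0.004), from a mean of 0.342 in the normal genotypes to 3.37 in 12/-. Trib3 reached the level tested only through the 12/- libraries, so its call gives no support to the list. Hspa5, the main chaperone of the compartment, had a log2 fold of -0.24 ± 0.10 (SE, adjusted p = 0.37) and Xbp1 one of 0.06.

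No tested collagen gene passed the test. Of 34 collagen genes in the data 14 were tested, and limma called 0, with 3 under an unadjusted p of 0.05, a median of -0.12 and 3 of 14 folds above 0. The type IV chains Col4a2 and Col4a1, which make up the endothelial basement membrane, had 0.54 ± 0.15 (SE, adjusted p = 0.14) and 0.51 ± 0.16 (SE, adjusted p = 0.21). Their levels were high, with means of 148 and 123.5 scaled FPKM in 12/- and of 101 and 87.0 in the normal genotypes. The fibrillar chain Col1a1 was low, at 1.39 in 12/- and 1.51 in the normal genotypes. Of 9 tested genes of elastic fibres, limma called 0, with 1 under an unadjusted p of 0.05 and a median of -0.08. That gene was Fbn1, the core of microfibrils, with -0.54 ± 0.12 (SE, adjusted p = 0.061), and Mfap2 had -0.56 ± 0.27 (SE, adjusted p = 0.46).

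Other hydroxylases that use oxygen and oxoglutarate were tested for 22 genes, of which 2 were called higher and 0 lower, with 7 under an unadjusted p of 0.05 and a median of 0.05. In 6 of the 22 the 12/- libraries lay above all 12 normal libraries, beside 1.91% of all genes. Besides the 2 called these were Kdm5b, Kdm3a, Asph and Tet2, with log2 folds of 0.34, 0.54, 0.42 and 0.21 that did not pass the test. The 2 called genes are prolyl hydroxylases that mark HIF proteins for breakdown and are themselves induced by HIF. Egln3 rose by 1.97 ± 0.19 (SE, limma adjusted p = 1.5e-04), from a mean of 5.79 to 24.9 scaled FPKM. Egln1 rose by 0.77 ± 0.13 (SE, limma adjusted p = 0.014), from 13.5 to 23.6, and it missed the threshold without 12/- replicate 1 or replicate 2 (adjusted p up to 0.178).

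**Figure D5:**
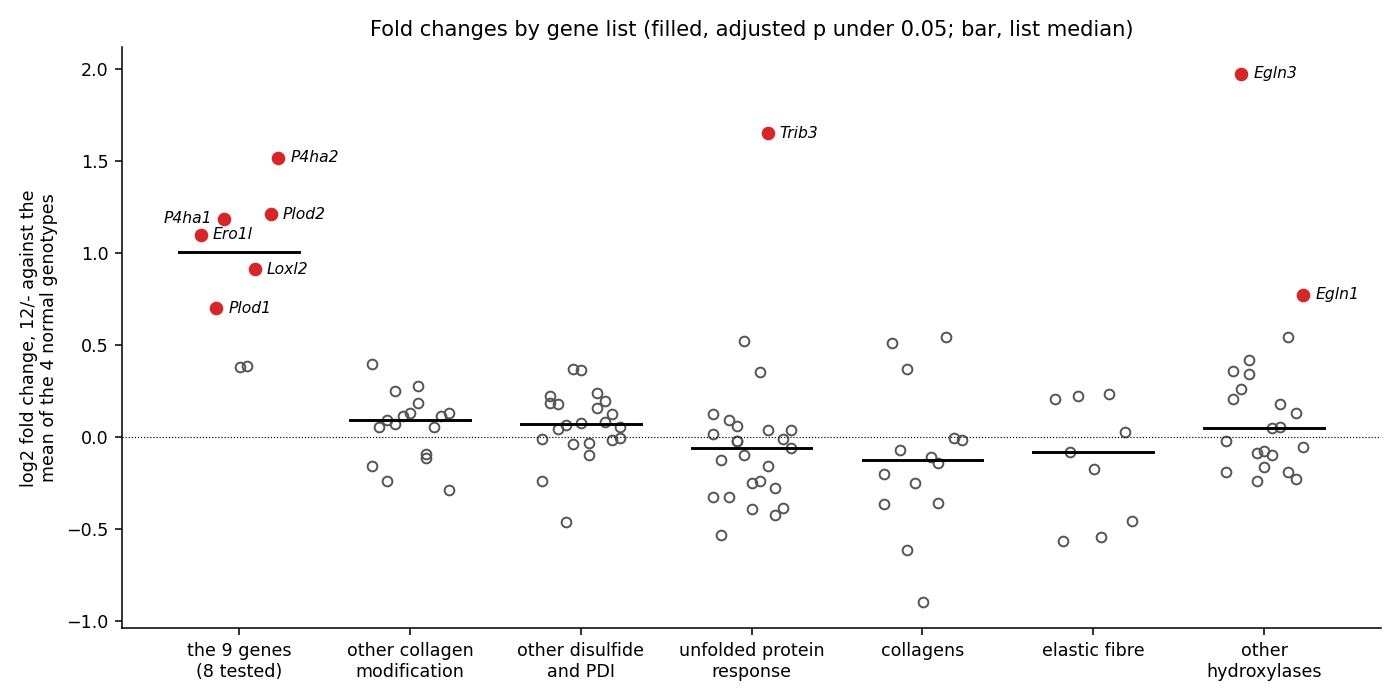
Log2 fold change in 12/- against the mean of the 4 normal genotypes for the 8 tested genes and for 6 lists of other pathway genes. Each circle is a gene, filled where limma's adjusted p was under 0.05, and bars are list medians. The median of the 8 genes, which were chosen with 12/- results in view, is 1.00 and is a description only. Medians of the other lists lie between -0.12 and 0.09. Trib3, Egln3 and Egln1 are the only filled circles in those lists.

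The levels of the genes ran together over the 14 deeper libraries to different degrees. Pearson's r between log2 levels was 0.920 for Loxl2 and P4ha1, 0.919 for Loxl2 and Plod2, 0.917 for P4ha1 and Ero1l and 0.915 for Plod2 and Ero1l. It was lowest for Plod3, down to 0.527 with Ero1l. These libraries include the 3 of 12/-, whose higher levels all the values share, so r is a description only. Other tested genes were ranked by r with each member, leaving out symbols of predicted genes, pseudogenes, clones and small RNAs. The 3 most like Plod2 were Fam162a (0.982), Bnip3 (0.977) and Ndufa4l2 (0.959). For P4ha1 they were Igfbp3 (0.973), Egln3 (0.955) and Vegfa (0.952), and for P4ha2 Igfbp2 (0.951), Sap30 (0.936) and Clec14a (0.913). For Ero1l they were Bnip3l (0.946), Stc2 (0.943) and Fam162a (0.933). The 3 most like Loxl2 were Pkm2 (0.974), Tpi1 (0.958) and Adora2a (0.953). Plod1, Plod3 and P4hb had other neighbours, led by Stk25 (0.940), Chst1 (0.915) and Elp3 (0.942), followed by Cav1 (0.930) and Tagln2 (0.909) for Plod1, Fam38a (0.886) and Dgkz (0.881) for Plod3, and Rras (0.919) and Gapdh (0.918) for P4hb.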

How the data were processed

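Each library has a deposited table in the cufflinks layout, in which 28107 RefSeq transcripts carry FPKM, coverage and a status, per the file headers. TopHat2 2.0.9 and mm9 are named in the submitters' processing notes, and the sources used here give no cufflinks version or strand setting. The FPKM that the authors deposited are normalised to transcript length and library size, so no count test was used. Deposited coverage, a signal in reads per base, gave the depth: divided by FPKM it is constant within a library and equals the aligned gigabases.

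FPKM was summed over the transcripts of a symbol (Python 3.11.15, pandas 2.3.3). Symbols with a status other than OK, 211 in number, were left out. Libraries were scaled by median-ratio factors over 8610 genes. Genes averaging 1 FPKM or more, 10550 in all, were fitted as log2(scaled FPKM + 1) with limma 3.58.1 in R 4.3.3 (trend moderation, 6 groups, 16 libraries, 10 residual degrees of freedom, two-sided). A gene was called at a Benjamini-Hochberg adjusted p under 0.05. This scale understates changes of low genes. The fit was tested on simulated data for 12/- against +/12 with 10550 genes. It called 70 of 100 genes with a log2 change of 1, 97 of 100 with a change of 2 and 9 of 10350 unchanged genes. The changes were added to log2(scaled FPKM + 1), with errors drawn independently for each gene and library. These rates may therefore not carry over to the data. Transcript shares were compared with exact permutation tests.

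The members, lists and alternatives were chosen with earlier results of these data known. Named are all members, per list the called genes (at most 4) or the 2 with the smallest p in 12/- against the normal mean, the 3 genes most like each member, and Notch1. Dnajb11, Dnajc3, Manf, Kdm5b, Kdm3a, Asph, Tet2, Hspa5, Xbp1, Pdia3, Pdia6, Lepre1, Crtap, Col1a1, Ero1lb, P4ha3 and the other Lox family genes were added after their values were seen. No 2 libraries held identical values. Replicate numbers follow the order of the samples and pair nothing. As alternatives, the scaling, pseudocount and filter were changed, only the compared groups were fitted, the library number range was a covariate, and libraries were left out.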

Additional observations from a re-analysis of the deposited data

Results flagged for a closer look

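In 2 genes the effect of the deletion allele differed between the partner alleles, by an interaction term in limma over all 10550 genes. For Plod2 the log2 change from +/12 to 12/- was 1.07, that from +/+ to +/- was -0.22, and the difference between them was 1.29 ± 0.16 (SE). For Ero1l the changes were 1.16 and 0.04, and the difference was 1.12 ± 0.17 (SE). Both passed the threshold of an adjusted p under 0.05, as did 0.0474% of all genes, 5 in number. The term rests on the 12/- libraries that were in view when the genes were chosen, so it is a description. Over 21 alternatives the difference stayed between 1.22 and 1.47 for Plod2, called in 12, and between 1.02 and 1.23 for Ero1l, called in 3. The other 6 tested genes had differences from 0.23 (Plod1) to 1.78 ± 0.43 (SE, P4ha2) that did not pass.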

How the results depend on the processing

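Against the mean of the 4 normal genotypes, Ero1l, Loxl2, P4ha1 and Plod2 were called in all 24 alternatives, and Plod1 and P4ha2 in 21. All 8 folds stayed positive. The count of called members, with 1 library left out at a time, ranged from 4 to 6 there, from 2 to 5 against +/12, from 2 to 4 against +/+, from 2 to 4 against +/- and was 3 in every case against +/vg, where it is 6 with all libraries. When only the compared groups were fitted, so that fewer libraries set the spread, 1 was called against +/12, 3 against +/+ and 2 against +/-. With the library number range as a covariate, 3 were called against +/+. The interaction called 0 of its 2 members with no scaling, with only the compared groups, with the range covariate and without the 2 shallow libraries. It called 1, Plod2, with a pseudocount of 0.1, with a filter at 0.1 FPKM and with no filter, and 0 to 2 with 1 library left out. The P4ha2 transcript share difference, 18.0 percentage points, was 3.31 within the low number range and 13.1 to 24.7 with a 12/- library or +/- replicate 2 left out. The Plod2 difference, 2.46 percentage points, was -10.05 within that range and -3.89 to 8.19 with those libraries left out. P4ha1 against +/- (adjusted p = 0.053 in limma) was called in 3 of 15 alternatives. Where a call was lost without fewer samples or genes, the cause was not tested. Counts over all genes ran from 8 to 41 against +/12 (22 in the fit reported), from 19 to 115 against +/+ (64), from 12 to 161 against +/- (60), from 26 to 95 against +/vg (47), from 27 to 139 against the mean (83) and from 0 to 9 for the interaction (5). Trib3 fell below the level tested in 5 of 24 alternatives and missed the threshold with the range covariate (adjusted p = 0.067). No paired analysis was possible because the labels carry no replicate numbers. With 3 libraries a group, and with P4ha2 at low coverage, small differences among the normal genotypes were not detectable.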
